A study of Schizosaccharomyces pombe with 50 samples.

Results

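The vacuolar protein sorting (vps) genes of fission yeast, Schizosaccharomyces pombe, were examined in growing and in quiescent cells. The members are the genes of the deposited ORF tables whose symbol is vps followed by digits only, without vps71 and vps72, which belong to a chromatin remodelling complex and share only the name. This rule gave 34 of the 6613 windows, with 16 genes on the plus strand and 18 on the minus strand, and with 19 on chromosome I, 12 on chromosome II and 3 on chromosome III. A row for vps71 was present and was left out, and no row carried the name vps72.

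Vps proteins carry newly made hydrolases and membrane proteins from the Golgi and the cell surface through endosomes to the vacuole, the yeast counterpart of the lysosome. The retromer coat recycles sorting receptors from endosomes, the ESCRT complexes sort cargo into vesicles inside the endosome, and the HOPS and CORVET tethers join endosomes and vacuoles before they fuse. In yeasts starved of nitrogen the vacuole breaks down proteins and organelles delivered by autophagy, and it supplies amino acids while the cells are arrested.

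By role the 34 members are 7 ESCRT genes (vps28 SPAC1B3.07c, vps25 SPBC4B4.06, vps36 SPBC3B9.09, vps20 SPBC215.14c, vps24 SPAC9E9.14, vps32 SPAC1142.07c and vps4 SPAC2G11.06), 6 genes of HOPS and CORVET (vps11 SPAC823.12, vps16 SPAC824.05, vps33 SPBC1703.15c, vps41 SPAP27G11.05c, vps3 SPCC364.05 and vps8 SPAC17A2.06c), 5 of retromer (vps26 SPAC4G9.13c, vps29 SPAC15E1.06, vps35 SPCC777.13, vps5 SPCPJ732.01 and vps17 SPAPJ696.01c) and 4 of GARP, the tether that receives endosomal vesicles at the Golgi (vps51 SPAC3G6.10c, vps52 SPBC336.11, vps53 SPAC3A12.15 and vps54 SPAC2F3.10). There are 2 VPS13 lipid transfer genes (vps1301 SPBC21C3.01c and vps1302 SPBC16C6.02c), 3 genes for endosomal fusion and Rab5 exchange (vps45 SPAC2G11.03c, vps901 SPBC4F6.10 and vps902 SPBC29A10.11c) and the pair vps55 SPAC630.11 and vps68 SPBC8D2.02c for endosomal membrane proteins. The rest are the sorting receptor gene vps10 SPBC16C6.06, the PI3-kinase subunit gene vps38 SPBC18H10.19, the dynamin-related vps1 SPAC767.01c, vps74 SPAC5D6.13, whose Saccharomyces cerevisiae counterpart sorts Golgi glycosyltransferases, and vps66 SPAC1783.02c. An identifier that ends in c marks a gene on the minus strand, where the annotation also places vps3 and vps74.

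The study mapped chromatin by ChIP-seq in 1 strain, Hu3112 (mat1-M smt-0 pht1-myc), which carries a Myc tag on Pht1, the fission yeast H2A.Z, and is labelled as wild type. Vegetative (V) cells were taken in mid-log phase from PMG minimal medium, and quiescent (Q) cells after 24 h in PMG without nitrogen. The 8 antibodies were against RNA polymerase II phosphorylated at serine 5 (S5) or serine 2 (S2) of its C-terminal repeat, H3K4me3, H3K9ac, H3K9me2, H3K9me3, the Myc tag (H2A.Z) and histone H3, each in 3 V and 3 Q libraries, and Drosophila chromatin was added before the immunoprecipitation. Because every group shares the tagged strain, no value here comes from an untagged cell, and a difference between V and Q averages over all cells of a culture, so a change in every cell and a change in some cells cannot be told apart.

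The deposited values are read counts divided by a size factor for each library, called normalised reads here. With this scaling the median log2 difference (Q minus V) over all ORF windows was 0.00 for S5, 0.01 for S2 and -0.01 for H3K4me3. A change shared by all windows would not show, so the values compare windows with each other and not amounts per cell. The ORF tables summed 856936 to 20673131 reads per library and the tables of 400 bp windows, named TSS tables, 170278 to 5319910. An ORF window of the vps genes was 505 to 9976 bp long (median 1762 bp). It held at least 99% of the coding sequence of 14 members, and for the other 20, all with introns, it left out part of the coding sequence at the higher coordinates. Positions are those of the files, in build ASM294v2. Reads carry no strand, and the ORF windows of 26 members overlapped the window of another gene. Several libraries stood apart. In Q replicate 1 the 7 antibodies other than H3 gave nearly the same pattern over all ORF windows (mean Spearman rho 0.960 over 21 pairs of antibodies, against 0.159 to 0.319 in the other 5 sets), and results are therefore also given without replicate 1. The highest pair in Q replicates 2 and 3 still reached 0.949 and 0.944, against 0.830 to 0.849 in V, and the lowest was -0.607 and -0.639. Leaving out replicate 1 therefore does not remove every likeness between antibodies. Q replicates 2 and 3 of S5 and of S2 agreed within sampling noise (chi-square divided by its degrees of freedom was 0.876 and 0.980 in ORF windows, against 3.16 or more for the other pairs of these antibodies). They count as 1 sample, so that S5 and S2 have 2 Q samples, and beside each S5 and S2 result of the 6 columns stands the result with the mean of the pair as 1 sample. The fit with the pair as 1 sample left out the replicate number as a block, which the fit of the 6 columns held. A smaller p-value in it can therefore come from the missing block, which was not tested. The S2 column of V replicate 3 in the TSS table equals the H3K9me2 column of V replicate 3 in 6612 of 6613 windows, and S2 is therefore read in ORF windows.

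RNA polymerase II occupancy was compared first, in ORF windows, to see how it differed between the states at these genes relative to all windows. A gene was called changed when limma gave an adjusted p under 0.05 over all windows and a log2 fold change beyond 1, always Q minus V on the scale log2(value + 1). No vps gene was called for S5, whereas 5.17% of 6580 windows were called higher and 0.714% lower in Q cells. The count was also 0 by edgeR, and 0 past the fold at a raw, unadjusted p under 0.05. The median log2 fold change of the 34 genes was 0.07, against 0.00 over all windows. At an adjusted p alone 9 members were higher (26.4% of all windows) and 2 lower (24.7%). With the pair as 1 sample no member was called, 10 were higher and 2 lower at an adjusted p alone.

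The largest S5 difference among the vps genes belonged to vps1301 (II:3788690-3798666), a VPS13 protein of a family that moves lipids between membranes at contact sites. It had 4504, 4159.6 and 4263 normalised reads in the V libraries and 7132, 6237 and 6159.9 in the Q libraries, with no overlap (log2 difference 0.59, SE 0.09, adjusted p = 0.00759, and 0.00472 with the pair as 1 sample). Its paralogue vps1302 (II:4322629-4331755) had 4344, 4651 and 4395 in V and 7352, 6247 and 6199.6 in Q cells, a difference of 0.56 (SE 0.11, adjusted p = 0.0142, and 0.00592 with the pair as 1 sample). Every Q library lay above every V library at both genes, by less than the fold threshold. The gene with the lowest S5 difference was vps24 (I:4468975-4470827), an ESCRT-III subunit, at 1266, 1301 and 1322 in V and 999, 1082 and 1064 in Q cells (-0.31, SE 0.05, adjusted p = 0.00995, and 0.00838 with the pair as 1 sample). Other members past the adjusted p alone were vps3 of CORVET (0.53), the ESCRT-I subunit vps28 (0.50), vps66 (0.49), the ESCRT-II subunit vps36 (0.40), vps33 of the tethers (0.35), the retromer sorting nexin vps17 (0.28) and the GARP subunit vps53 (0.21), all higher in Q cells, and vps74 (-0.27), lower in Q cells.

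Per kb of window, S5 in V cells was highest at vps68 (811 normalised reads per kb) and lowest at the ESCRT-II subunit vps25 (314), and the same genes were at the ends of the order in Q cells (773 and 393). For H3 too vps68 was the highest member in V and Q cells (967 and 922 per kb). The lowest for H3 was vps38 in V (508) and vps25 in Q cells (493). These ends of the order are therefore not particular to S5. The vps68 window held 706, 759 and 777 in V and 739, 671 and 724 in Q cells, which overlap, and the vps25 window held 291, 219 and 223 and 272, 341 and 308, which overlap too. The median of the 34 genes was 519 per kb in V and 598 in Q cells, beside 590 and 599.8 over 5039 protein-coding genes. The S5 signal of these genes therefore spread over 2.59-fold in V and 1.96-fold in Q cells.

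S2, the mark of elongating polymerase, gave no called member either (0 by edgeR, and 0 past the fold at a raw p under 0.05), with 1.44% of 6579 windows called higher and 0.0912% lower. At an adjusted p alone vps3 (0.38, adjusted p = 0.0208) and vps28 (0.33, adjusted p = 0.0491) were higher and vps74 (-0.28, adjusted p = 0.0376) was lower in Q cells. Those shares of all windows were 8.74% and 10.9%. With the pair as 1 sample none of the 34 passed the adjusted p for S2 (vps3 0.0572, vps28 0.0972, vps74 0.117). The largest S2 difference, at vps38 (II:1806007-1806698), a subunit of the endosomal PI3-kinase complex, did not pass: its libraries held 322, 293 and 171 in V and 371, 365 and 387 in Q cells (0.57, SE 0.24, adjusted p = 0.137), and V replicate 3 was the low one. The V level of vps38 was also the lowest per kb (379). The highest V level and the largest difference downward were both at vps45 (1029 per kb), with 957, 1145 and 1281 in V and 894, 916 and 837 in Q cells (-0.34, SE 0.11, adjusted p = 0.0760). The vps38 window holds 16.6% of the coding sequence, next to the start, and the vps45 window 10.8%, next to the gene end.

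**Figure D1:**
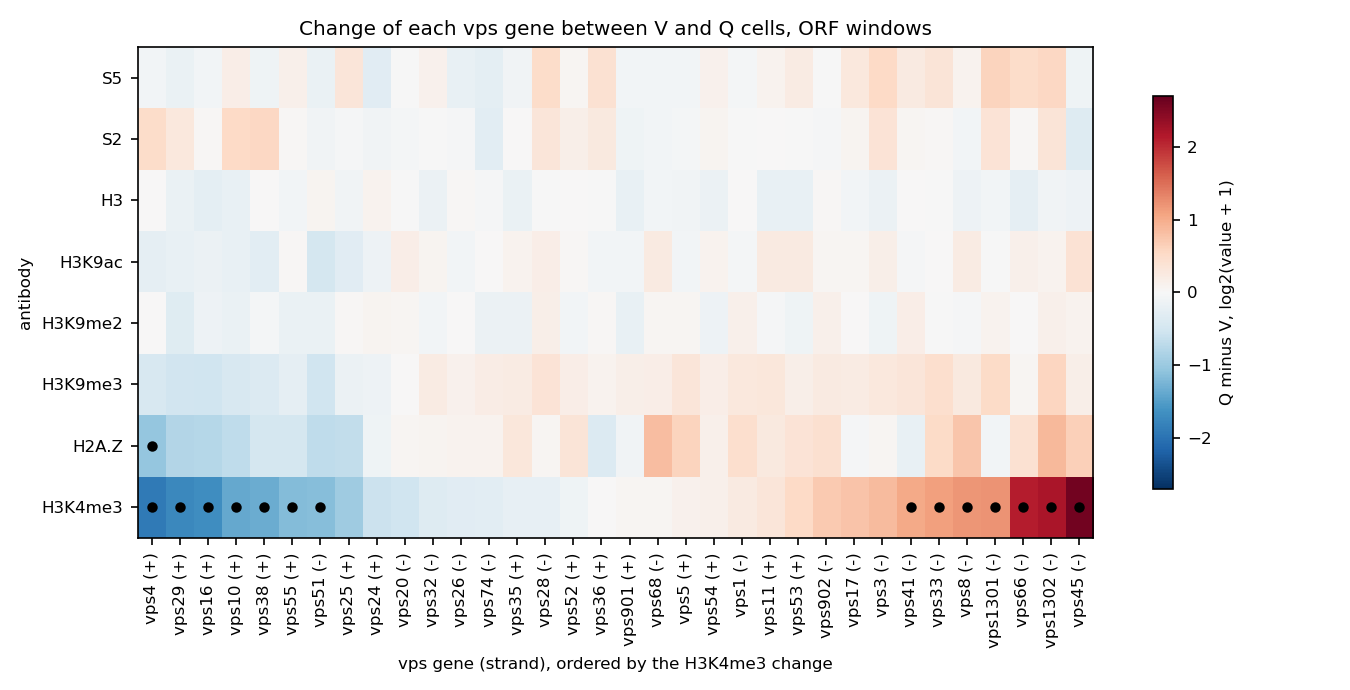
Log2 difference (Q minus V) of each of the 34 vps genes for the 8 antibodies in ORF windows, with genes ordered by their H3K4me3 value. Black dots mark the called genes, 14 for H3K4me3 and 1 for H2A.Z, and the rows of S5, S2, H3 and the 3 H3K9 marks hold none.

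H3K4me3, the methylation that Set1C/COMPASS places near the starts of transcribed genes, had the most called members. In ORF windows 7 vps genes rose and 7 fell in Q cells, against 19.4% and 13.8% of 6576 windows. All 7 that rose lie on the minus strand (18 members), and 6 of the 7 that fell lie on the plus strand (16 members). The strand matters for what a window holds, because a window that stops short keeps the 5′ end of a plus-strand gene and the 3′ end of a minus-strand gene. Of all plus-strand windows 23.7% were called lower and 15.3% higher, and of all minus-strand windows 4.01% and 23.5%. Beside these results stand the antibody patterns themselves. Over all 6613 ORF windows the H3K4me3 signal per kb had a Spearman rho with that of H3 of 0.02, −0.10 and −0.16 in V replicates 1 to 3 and of 0.98, 0.83 and 0.56 in Q replicates 1 to 3, so that H3K4me3 in Q cells followed the pattern of H3 far more closely. Its rho with S5 likewise went from 0.45, 0.40 and 0.39 in V to 0.97, 0.86 and 0.63 in Q cells. The part of this likeness of antibodies in the calls was not tested. Relative to H3, in a fit of the 2 antibodies together, the vps counts were 8 rises and 7 falls. By edgeR they were 6 and 8, and without replicate 1 they were 7 and 7.

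The falls in ORF windows were at genes of most steps of the pathway. At vps4 (I:817796-818340), the AAA ATPase that takes ESCRT-III apart, H3K4me3 was 654, 715 and 725 normalised reads in the V libraries and 173, 180.2 and 202 in the Q libraries (-1.91, SE 0.10, adjusted p = 0.000495). At vps29 (I:3727103-3727725), a core subunit of retromer and the highest member per kb in V cells (1351), it was 834, 838 and 849.7 in V and 194, 274 and 302 in Q cells (-1.73, SE 0.14, adjusted p = 0.000609). At vps16 (I:1691732-1692237), a core subunit of HOPS and CORVET, it was 648, 679 and 688 and 166, 213 and 262 (-1.67, SE 0.14, adjusted p = 0.000618). In all 3 every V library lay above every Q library. The windows are short, 544, 622 and 505 bp, and hold 10.5%, 32.8% and 5.70% of the coding sequence, the part next to the start.

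The sorting receptor gene vps10 (II:4336762-4337385), whose product binds vacuolar hydrolases in the Golgi, fell from 883, 768 and 738 to 226, 324 and 384 (-1.38, SE 0.21, adjusted p = 0.00237). The PI3-kinase subunit gene vps38 fell from 651, 665 and 643 to 202, 273 and 310.2 (-1.34, SE 0.15, adjusted p = 0.000986), and vps55 (I:366434-367017), for an endosomal membrane protein, from 602, 511 and 523 to 207, 241 and 276 (-1.18, SE 0.15, adjusted p = 0.00151), and without replicate 1 it lay just under the fold threshold. The 7 members with windows under 800 bp are all on the plus strand, 6 of them are these called genes, and the other, vps25, stood at -0.95, just short of the fold threshold. The 1 fall on the minus strand was at vps51 (I:5397147-5398400) of the GARP tether. Its V libraries held 981, 1037 and 1074 and its Q libraries 389.8, 478 and 542 (-1.14, SE 0.09, adjusted p = 0.000570), and its window covers the whole coding sequence and also the annotated start of the neighbouring gene tps2.

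The rises were led by vps45 (I:811243-812339), a Sec1/Munc18 protein that acts on endosomal SNAREs. Its H3K4me3 signal was the lowest per kb in V cells (72.6) and went from 113, 56.7 and 69.0 to 527, 481 and 407 normalised reads (2.60, SE 0.21, adjusted p = 0.000591). The VPS13 gene vps1302 went from 1357, 856 and 763 to 5212, 4527 and 3684 (2.20, SE 0.10, adjusted p = 0.000495) and vps1301 from 2274, 1719.8 and 1752 to 5119, 4433 and 3807 (1.22, SE 0.07, adjusted p = 0.000495). These are the longest members, and their windows hold 98.1% and 99.8% of the coding sequence, so most of the counted bases lie far from the start. At vps66 (I:2189154-2190045) the signal was 141, 64.8 and 74.1 in V and 452, 379 and 338 in Q cells (2.13, SE 0.21, adjusted p = 0.000794). In each of these 4 genes every Q library lay above every V library. The windows of vps45 and vps66 hold 10.8% and 52.9% of the coding sequence, the part next to the gene end.

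The other rises were at 3 tethering genes. The CORVET subunit gene vps8 (I:3562748-3567029) held 1054, 892 and 828 in V and 2291, 2147 and 1872 in Q cells (1.19, SE 0.06, adjusted p = 0.000495). The Sec1/Munc18 subunit gene vps33 (II:2944668-2946135) held 275, 289 and 291 and 659, 629 and 550.0 (1.10, SE 0.11, adjusted p = 0.000790), and the HOPS subunit gene vps41 (I:1615503-1616368) held 199, 141 and 174 and 392, 345 and 305 (1.02, SE 0.15, adjusted p = 0.00233). No V library overlapped a Q library at any of the 3, but vps41 lay under the fold threshold without replicate 2 (0.89), scaled by library totals (0.93) and by edgeR (0.98). The vps33 and vps41 windows hold 51.7% and 15.1% of the coding sequence, the part next to the gene end. The vps41 window also holds the start of the neighbouring gene tad3. The called windows of tether genes thus differed both ways, with vps16 down and vps8, vps33 and vps41 up. The vps16 window holds a gene start and those of vps33 and vps41 hold gene ends. These directions therefore do not compare the same part of each gene. Both VPS13 genes rose. Of the 7 ESCRT genes 1 fell, with a median of −0.54 and a range of −1.91 to 0.01, and of the 5 retromer genes 1 fell, with a median of −0.22. Among the 14 members whose window holds the whole coding sequence, 2 rose (vps8 and vps1301) and 1 fell (vps51), with a median of 0.07.

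The H3K4me3 and H2A.Z levels of the 34 genes spanned a narrower range in Q than in V cells, and those of H3K9me3 a wider one. In V cells H3K4me3 ran from 72.6 per kb at vps45 to 1351 at vps29, an 18.6-fold range, and in Q cells from 281 at vps25 to 582 at vps68, a 2.08-fold range. The V extremes hold different parts of a gene. The vps45 window holds 10.8% of the coding sequence, next to the gene end, and the vps29 window 32.8%, next to the start. The V range therefore sets gene ends against gene starts and is not a range between whole genes. For H3 the range was 1.90-fold in V and 1.87-fold in Q cells. H2A.Z ran over 4.52-fold in V and 1.79-fold in Q cells, H3K9me3 over 1.86-fold and 2.90-fold, and H3K9me2 over 1.73-fold and 1.77-fold. The H3K4me3 median of the members was 479 per kb in V and 434 in Q cells.

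**Figure D2:**
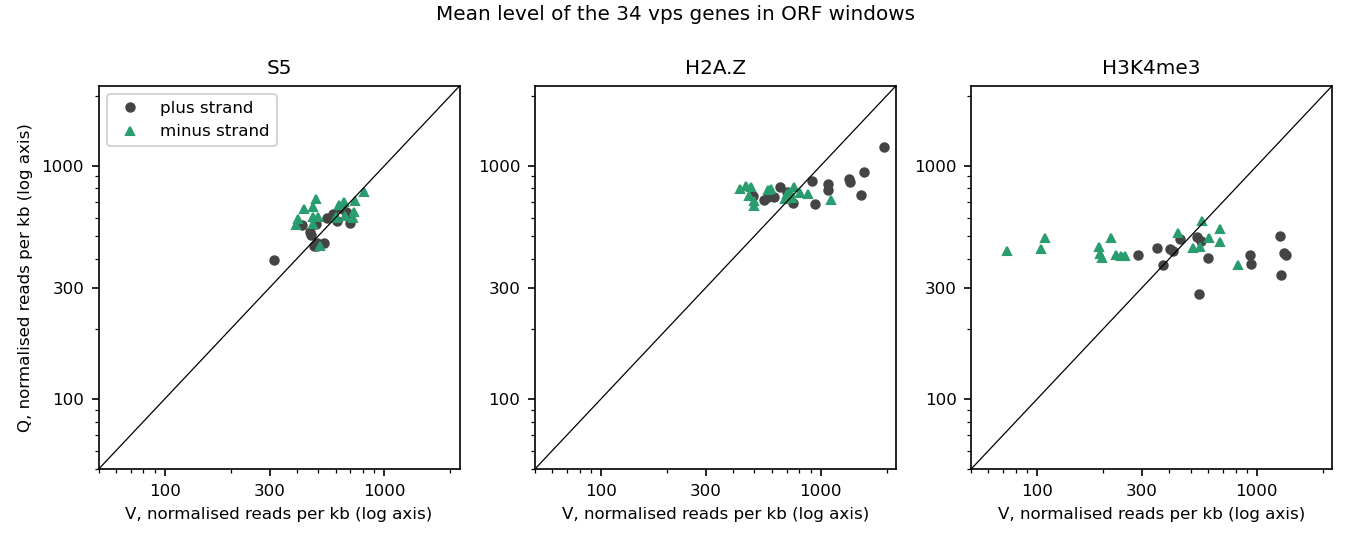
Mean level of each vps gene in the 3 V libraries (horizontal) and the 3 Q libraries (vertical) in normalised reads per kb of ORF window, both log axes, with plus-strand genes as circles, minus-strand genes as triangles and the line of equal levels. S5 points follow the line, whereas H3K4me3 points lie in a flat band between 281 and 582 in Q cells over V levels of 72.6 to 1351.

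The TSS tables give the signal at the lower-coordinate end of each gene. Each window spans 400 bp from the same lower coordinate as the ORF window, whatever the strand, so that it surrounds the start of a plus-strand gene and the end of a minus-strand gene. Starts and ends were read from the RefSeq annotation of assembly ASM294v3. Of the 6613 windows 4179 began 200 bp (within 1 bp) below the lower end of the annotated gene. The window held the gene's own start in 14 of the 16 plus-strand members, 201 to 315 bp from its lower edge. The exceptions were vps36 and vps901, whose annotated starts lie 696 and 421 bp from that edge. The window's place relative to the annotated start thus differs between plus-strand members. It held the gene's own end in all 18 minus-strand members, and in 6 of these it also held the start of another protein-coding gene (tad3 at vps41, swc4 at vps1, idn1 at vps26, tps2 at vps51, nap1 at vps3 and SPBC31F10.17c at vps1301). This split was made after the values had been seen.

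H3K4me3 rose in 8 of these windows and fell in 13, against 36.4% and 21.7% of 6556 windows. Of the 16 plus-strand members 12 fell and none rose, beside 34.3% lower and 19.2% higher among 3254 plus-strand windows. Of the 14 plus-strand members whose own start lies in the window 11 fell. At gene ends without another start 8 of 12 members rose and none fell, beside 67% and 3.26% of 2518 such windows. At gene ends that hold another start none of 6 rose and vps51 fell, beside 7.51% higher and 32.1% lower of 692. The median level of those 14 was 365, 355 and 346 normalised reads in the V libraries and 127, 147 and 172 in the Q libraries. At gene ends without another start it was 65.7, 41.7 and 37.4 in V and 197, 175 and 150.4 in Q cells, so that ends lay far below starts in V cells, above them in Q replicates 1 and 2 and below them in Q replicate 3. Without replicate 1 the counts were 8 rises and 9 falls (vps36, vps51, vps52 and vps54 were no longer called), without replicate 2 vps11 and vps53 were no longer called, and scaling by library totals gave 8 rises and 7 falls, a scaling that moved the median of all windows by 0.20 on the log2 scale.

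The 3 largest falls at gene starts were at vps4, vps29 and vps35. The vps4 start window held 507, 562 and 515 in V and 138, 142 and 149 in Q cells (-1.88, SE 0.17, adjusted p = 2.18e-12) and the vps29 window 598, 558 and 522 and 119, 179.6 and 169 (-1.86, SE 0.20, adjusted p = 9.74e-11). Both windows also hold the start of a neighbour, alx1 at vps4 and ect1 at vps29, whose signal cannot be told apart from theirs. The vps35 window, at the gene for the scaffold of the retromer core, has no such neighbour and held 429, 525 and 489.7 in V and 106, 151 and 183 in Q cells (-1.73, SE 0.16, adjusted p = 3.24e-12). In its ORF window, 2232 bp long, vps35 differed by only -0.22. The other falls at gene starts, from −1.65 to −1.01, were at vps16, vps24, vps10, vps38, vps52, vps54, vps11 and vps53, and the windows of vps24 and vps54 also hold the start of another gene (wos2 and SPAC2F3.18c). The vps36 window fell too (-1.07), but its annotated start lies outside the window, which holds the start of mnh1. The plus-strand members that were not called were vps5 (-0.97), vps55 (-0.90), vps25 (-0.71) and vps901 (0.08, adjusted p = 0.674), and vps901, for a Rab5 exchange factor, is 1 of the 2 whose start lies outside the window. Its libraries held 116, 112 and 111 in V and 105, 119.7 and 136 in Q cells, the only plus-strand member with a difference above 0.

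The promoter sequences of 4 members whose start window lost H3K4me3 are shown because most of these bases lie in the window. They are the 250 bases before the annotated gene start in ASM294v3 (RefSeq), 5′ to 3′. The 4 genes have the largest falls among those whose own start lies in the window and whose printed bases touch no other protein-coding gene. Capitals mark matches on either strand to TATAAA, a core promoter element, or to GATAAG, which GATA factors bind.
vps35 (III:1619116-1619365, plus strand): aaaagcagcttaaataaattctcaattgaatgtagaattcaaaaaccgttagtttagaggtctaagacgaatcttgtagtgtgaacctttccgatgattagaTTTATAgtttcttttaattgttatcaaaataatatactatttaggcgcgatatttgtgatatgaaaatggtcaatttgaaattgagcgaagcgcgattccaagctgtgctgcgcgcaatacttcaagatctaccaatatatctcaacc
vps10 (II:4336736-4336985, plus strand): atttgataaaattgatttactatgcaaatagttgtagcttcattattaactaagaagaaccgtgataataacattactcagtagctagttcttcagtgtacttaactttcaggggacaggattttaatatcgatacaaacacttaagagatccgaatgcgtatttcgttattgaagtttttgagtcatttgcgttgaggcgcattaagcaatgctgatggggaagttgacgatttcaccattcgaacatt
vps38 (II:1805981-1806230, plus strand): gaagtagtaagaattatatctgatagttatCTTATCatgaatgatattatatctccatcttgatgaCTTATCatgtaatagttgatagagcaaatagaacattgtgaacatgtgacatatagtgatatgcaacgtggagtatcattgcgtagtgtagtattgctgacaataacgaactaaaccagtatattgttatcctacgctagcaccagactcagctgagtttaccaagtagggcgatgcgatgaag
vps11 (I:2600833-2601082, plus strand): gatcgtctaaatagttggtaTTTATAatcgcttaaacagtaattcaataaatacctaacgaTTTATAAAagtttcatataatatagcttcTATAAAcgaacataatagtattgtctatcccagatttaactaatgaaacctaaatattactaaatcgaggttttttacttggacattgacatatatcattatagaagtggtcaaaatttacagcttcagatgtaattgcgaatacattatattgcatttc
The match in vps35 begins 148 bases before the start, those in vps38 220 and 184 bases before it, and vps11 has 4 matches to TATAAA, of which 1 on each strand overlap in the run TTTATAAA. The vps10 sequence held no match. TATAAA was found in 12 of the 34 member promoters (35.3%) and in 44.4% of 5112 promoters, GATAAG in 5 (14.7%) and 10.2%, and TGACGT, the core of the Atf1 site, in 3 (8.82%) and 5.52%. CAGTCACA, the HomolD box, was in none of the members and in 2.62% of all. These are matches of letters and not bound sites.

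The rises stood at gene ends. The vps20 end window, at an ESCRT-III gene, held 50.1, 22.2 and 23.6 normalised reads in V and 187, 173 and 159 in Q cells (2.50, SE 0.35, adjusted p = 3.94e-08). The vps1302 window held 59.5, 30.2 and 28.3 and 263, 217 and 171 (2.50, SE 0.27, adjusted p = 1.52e-10), and the vps8 window 72.0, 27.5 and 23.6 and 249, 214 and 169 (2.49, SE 0.29, adjusted p = 5.67e-10). In all 3 the first V library was the highest of its group and still below every Q library. The other rises, from 1.82 to 2.47, were at vps45, vps66, vps68, the ESCRT-I gene vps28 and the ESCRT-III gene vps32. The 4 gene ends without another start that did not rise were vps902 (-0.59), vps74 (-0.48), vps17 (-0.27) and vps33 (-0.24), and their V levels, from 125 to 209.5 normalised reads, all lay above the highest V value of the 8 that rose (72.0, at vps8 and vps68). The calls were made from these same V values, so this split by V level is not independent of them. Among the ends that hold another start, vps51 went from 354, 392 and 387 to 147, 192 and 214 (-1.05, SE 0.16, adjusted p = 1.08e-07), followed by vps26 of retromer with 322, 342 and 322 and 158, 175 and 172 (-0.96, SE 0.13, adjusted p = 2.04e-08) and vps3 with 269, 259 and 248 and 129, 146 and 188 (-0.76, SE 0.12, adjusted p = 6.11e-07), neither of which reached the fold threshold.

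**Figure D3:**
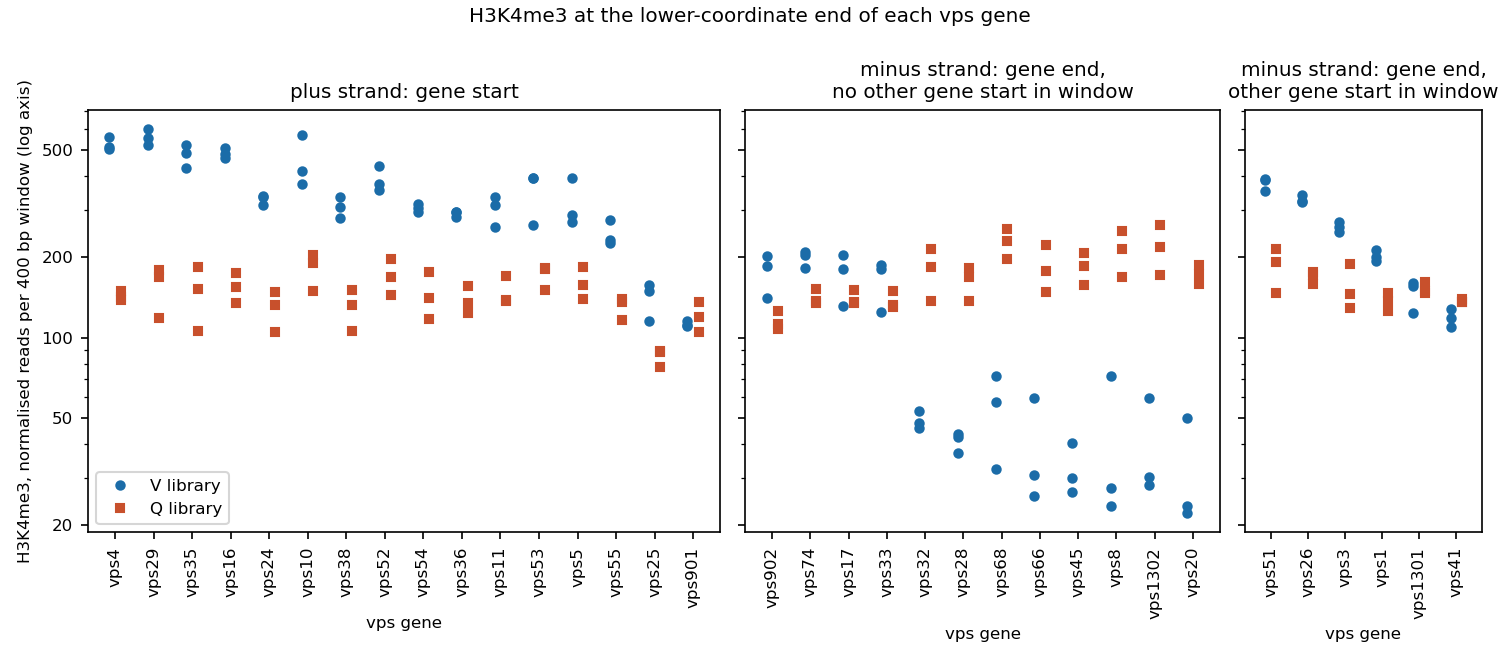
H3K4me3 in the 400 bp window at the lower-coordinate end of each vps gene, in normalised reads on a log axis, with each V library as a circle and each Q library as a square. At every plus-strand gene but vps901 all V libraries lie above all Q libraries, and 8 of the 12 gene ends without another start lie at or below 72.0 in all V libraries and at or above 137 in all Q libraries.

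A ratio within each library removes the scaling between libraries. The reads per bp in the lower 400 bp were divided by those in the rest of the ORF window for the 27 members with windows of at least 800 bp, a comparison chosen after the values had been seen. On a log2 scale the H3K4me3 ratio fell in 14 members and rose in 5, against 25.4% and 31.6% of 4985 windows. The 9 plus-strand members had a median change of −1.46, and the ratio fell in 8, the exception being vps901 (-0.00), beside 38.6% lower and 14.3% higher of all plus-strand windows. At vps53, whose window holds the whole gene, the start was enriched over the rest by a log2 ratio of 1.59, 2.42 and 2.45 in the V libraries, and the ratio was -0.25, 0.09 and 0.32 in the Q libraries (-2.10, SE 0.17, adjusted p = 0.000170). At vps35 it went from 1.09, 1.81 and 1.94 to -1.02, -0.47 and 0.09 (-2.08, SE 0.17, adjusted p = 0.000167). In Q cells the log2 ratio of the plus-strand members lay between −1.02 and 0.32 in every library.

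The 5 rises of the ratio were at the gene ends of vps20, vps68, vps32, vps28 and vps8, among 12 ends without another start. Of all such ends 56.4% were called higher and 8.42% lower, and of all ends with another start 7.66% and 38.4%. At vps20 the ratio was -2.82, -4.02 and -3.78 in V and 0.17, -0.23 and -0.39 in Q cells (3.39, SE 0.20, adjusted p = 0.000134), and at vps28 -2.41, -2.81 and -2.53 and 0.24, -0.18 and -0.54 (2.42, SE 0.20, adjusted p = 0.000167). Both windows hold the whole gene. At both ends the V density was a small part of that of the body, and the Q density was close to it. The ratio also fell at 6 minus-strand members, namely vps33, vps3, vps41, vps902, vps17 and vps1301, of which vps3, vps41 and vps1301 hold another start in the lower window. At vps33, without one, it went from 1.10, 2.33 and 2.46 to -0.63, -0.29 and -0.18 (-2.33, SE 0.23, adjusted p = 0.000257). Leaving out replicate 1 gave 5 rises and 13 falls, vps24 being lost.

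**Figure D4:**
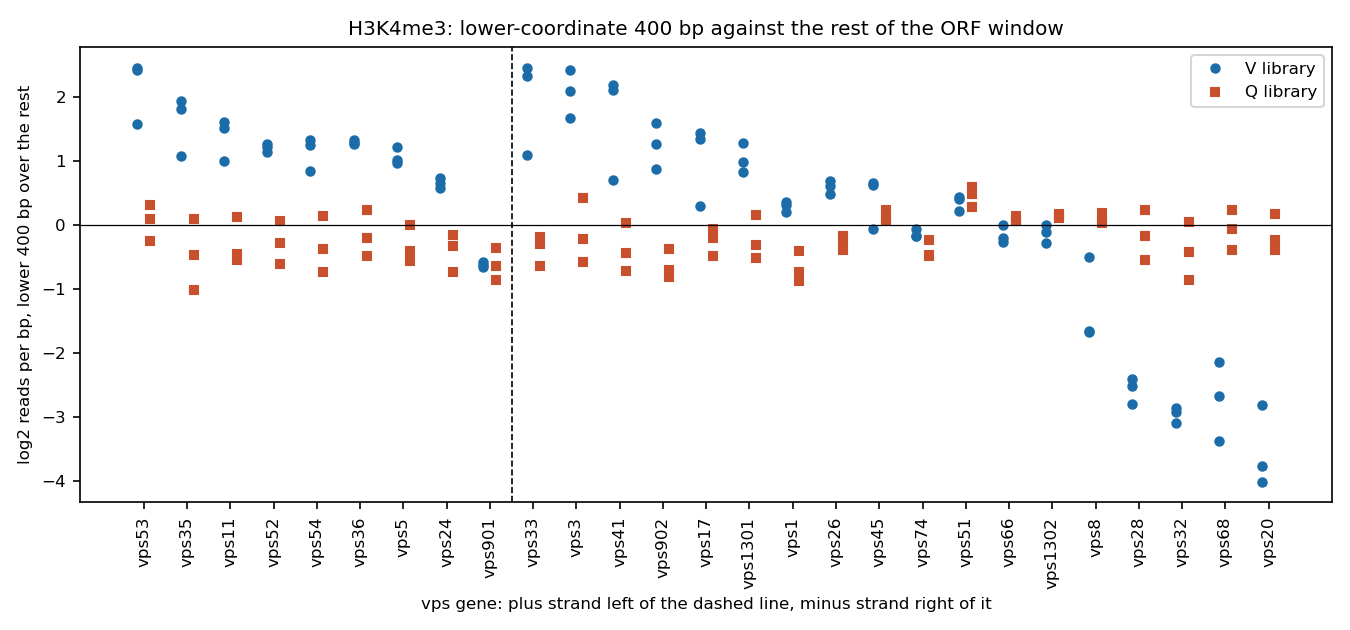
Log2 ratio of H3K4me3 reads per bp in the lower-coordinate 400 bp to those in the rest of the ORF window, for 27 vps genes, with each V library as a circle and each Q library as a square. V values spread from −4.02 at vps20 to 2.46 at vps33, and Q values lie between −1.02 and 0.59 at every gene.

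H2A.Z, which marks the nucleosomes beside the start, spanned a narrower range of differences than H3K4me3, from −1.05 to 0.88 against −1.91 to 2.60 in ORF windows. In ORF windows 1 vps gene was called, vps4, which fell from 739, 885 and 858 to 304, 466 and 447 (-1.05, SE 0.10, adjusted p = 0.000723), against 1.17% of 6578 windows called higher and 1.47% lower. Q replicate 1 was the lowest library, and without replicate 1 vps4 was no longer called (0 members). At an adjusted p alone 14 members were higher and 10 lower (38.3% and 38.9% of all windows). The largest differences upward were at vps1302 (0.88), vps68 (0.84) and vps8 (0.75), and those downward after vps4 at vps29 (-0.78), vps16 (-0.78) and vps10 (-0.69). The highest H2A.Z level in V cells was at vps16, with 1941 per kb, against 1209.8 in Q cells.

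In the 400 bp windows 1 member was called for H2A.Z. The end of vps68 (II:1360789-1361710), for a protein that in Saccharomyces cerevisiae works with Vps55 on late endosomes, rose from 195, 165 and 150.0 to 472, 321 and 314 (1.10, SE 0.11, adjusted p = 4.73e-09), against 8.37% of 6558 windows called higher and 1.28% lower. Its H3K4me3 signal rose in the same window, from 72.0, 57.7 and 32.3 to 255, 229.8 and 196 (2.12). At an adjusted p alone 12 of the 16 plus-strand windows were lower and none higher (51.2% and 25.5% of all plus-strand windows), and 11 of the 14 that hold the gene's own start were lower. Of the 12 gene ends without another start, 9 were higher and 2 lower (63.9% and 17.7%). Without replicate 1 these counts were 14 plus-strand windows lower and 9 ends higher. V replicates 2 and 3 of H2A.Z agreed within sampling noise in this table (chi-square over its degrees of freedom 0.99, against 5.36 and 6.47 for the other V pairs) but not in the ORF table (1.83), and for Q replicates 2 and 3 the values were 1.08 and 1.29. With the mean of V replicates 2 and 3 as 1 sample and no block, a fit chosen after the data had been seen, vps68 was still called (1.04, SE 0.21, adjusted p = 0.0113), whereas at an adjusted p alone 2 of the 16 plus-strand windows were lower and 7 of the 12 ends higher. Among the members not called, the differences were widest at vps17 (-0.97), vps11 (-0.89) and vps4 (-0.85) downward and at vps8 (0.96), vps66 (0.95) and vps20 (0.94) upward. H2A.Z was also read as the ratio of the lower 400 bp to the rest, chosen after the data had been seen. The ratio was called lower in 7 of 27 members, 4 of them on the plus strand, and higher in none. Over all windows tested 564 were lower and 183 higher, with a median of -0.19, against -0.42 in the members.

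RNA polymerase II was read in the same 400 bp windows. No member was called for S5, against 7.52% of 6557 windows higher and 1.51% lower (0 by edgeR, and 0 past the fold at a raw p under 0.05), and at an adjusted p alone 5 were higher and 5 lower (25.4% and 23.8%). With the pair of Q replicates as 1 sample these were 3 and 5. The vps24 start went from 311, 330.3 and 324 to 138, 199.8 and 174 (-0.93, SE 0.11, adjusted p = 0.000647, and 0.000431 with the pair as 1 sample) and the vps28 end from 149.7, 153 and 127 to 271, 236 and 242 (0.80, SE 0.11, adjusted p = 0.00127, and 0.00141 with the pair as 1 sample). V and Q libraries did not overlap at either gene. The vps24 window also holds the start of wos2, whose S5 signal cannot be told apart from that of vps24. The S5 ratio of the lower 400 bp to the rest fell at vps902 (-1.06, SE 0.12, adjusted p = 0.0121) and vps3 (-1.03, SE 0.16, adjusted p = 0.0172), against 1.87% of 4985 windows lower and 1.93% higher, and neither was called without replicate 1 or without replicate 2. With the pair as 1 sample and no block, a fit chosen after the data had been seen, both were still called (adjusted p = 0.00571 and 0.0145). The lower window of vps3 also holds the start of nap1.

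Histone H3, H3K9ac, H3K9me2 and H3K9me3 gave no called member in either kind of window by limma, by edgeR, or past the fold at a raw p under 0.05. The Q libraries of H3K9ac disagreed. Over all TSS windows replicate 1 had a Spearman rho of -0.16 with replicate 2 and -0.19 with replicate 3. In ORF windows these were 0.96 and 0.79. The lack of H3K9ac calls is therefore weak evidence that this mark was unchanged. Of all ORF windows 1.38% were called higher and 0% lower for H3, 0% either way for H3K9ac, 0.0152% and 0.913% for H3K9me2, and 0.0304% and 0.639% for H3K9me3. Of all TSS windows the shares were 2.41% and 0% for H3, 0% either way for H3K9ac, 0.0763% and 0.0915% for H3K9me2, and 0.153% and 0.595% for H3K9me3. The members' median log2 difference in ORF windows was −0.08 for H3, 0.02 for H3K9ac, −0.00 for H3K9me2 and 0.18 for H3K9me3. At an adjusted p alone H3K9me3 in ORF windows was higher at 5 members and lower at 3 (11.1% and 5.35% of all windows), and without the replicate block at none. For H3 no member passed in ORF windows (8.81% higher and 2.92% lower of all), and without the block 6 were lower. In TSS windows H3 was higher at 1 member and lower at 4 (16% and 9.82%), and H3K9me3 higher at 1 and lower at 3 (5.26% and 2.49%). The largest H3K9me3 difference in ORF windows was at vps1302, with 1915, 2713 and 3083 in V and 2925, 3584 and 5188 in Q cells, which overlap (0.59, SE 0.11, adjusted p = 0.00706). The 3 with lower H3K9me3 in ORF windows, vps16, vps51 and vps29, also fell for H3K4me3.

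Partner genes of the pathway were read from lists set in the design, and their counts stand beside 19.4% of all ORF windows called higher and 13.8% lower for H3K4me3. A role of each listed gene in the pathway was not checked. Of 19 ESCRT and endosome partners with a window, H3K4me3 rose in 1 and fell in 1 in ORF windows, namely mvp1, for a sorting nexin (2.76), and hse1, for an ESCRT-0 subunit (-1.70). Of 16 genes of the vacuolar proton pump (V-ATPase) and its assembly, 2 rose, vma13 (2.37) and vma2 (2.06), and 6 fell, led by vma8 (-1.79) and vma1 (-1.48). None of 6 vacuolar hydrolase genes was called for H3K4me3 in ORF windows. Of 4 genes on the list named PI3P and vacuole membrane 2 rose, vac8 (2.37) and ksg1 (1.51). All 5 that rose lie on the minus strand and all 7 that fell on the plus strand. No partner of any list was called for S5 or S2 in ORF windows. The protease gene isp6, known to be induced when nitrogen is removed, rose for H2A.Z in its ORF window (1.24, SE 0.04, adjusted p = 0.000327). Among the genes that report the cell state, the histone genes hht1 and hhf1, used in S phase, fell for S5. The hht1 window held 2260.1, 1664 and 1825 in V and 709.8, 814 and 792 in Q cells (-1.30, SE 0.13, adjusted p = 0.00433), and the vps genes showed no S5 difference of that size. None of the 5 genes listed as induced on nitrogen removal was called for S5 in ORF windows, whereas H3K4me3 rose at isp4 (2.17), mei2 (1.80) and ste11 (1.20), and ste11 lies on the plus strand. The vps71 gene left out by the rule had an H3K4me3 difference of -0.98 in its ORF window.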

How the data were processed

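ChIP-seq was made by the authors from 48 libraries of V and Q cells with 8 antibodies, and 2 inputs were not analysed here. Per the submitters' processing notes reads were aligned with BWA 0.7.17 to ASM294v2. The study's methods state that counts per window were compared with DESeq2 after batch effects were removed. The deposited values are a signal, read counts divided by a size factor per library: the spacing of each column's values gave whole reads (100% of values, tolerance 1e-05). The authors' own fold changes and p-values in the files were not used.

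From these values log2(value + 1) was fitted with limma 3.58.1 (R 4.3.3), a variance trend and the replicate number as a block, per antibody and window table, over windows that reached 10 in 3 or more of the 6 libraries, with Benjamini-Hochberg adjustment. edgeR 4.0.16 was run on the recovered reads. Simulated libraries with known changes, made from the H3K4me3 and S5 ORF values, were used to test some of the fits. These were limma with and without the block, edgeR, the ratio and the fit relative to H3. The TSS tables and the other fits were not simulated. The libraries are labelled as replicates of 1 strain, and p-values measure the spread between them. Correlated deviations of same-numbered libraries (every pair over 0.1) were found for H2A.Z in both tables and for H3K9ac in the TSS table only. The block was kept in every main fit, as the design set it, and the fit without it is an alternative. The fits with a pair of replicates as 1 sample, and the S2 fit without V replicate 3, had no block. Strands, starts and sequences came from RefSeq ASM294v3, which matched 6521 of 6613 identifiers and all 34 members. Of the 6613 windows 4179 began 200 bp (within 1 bp) below the lower end of the annotated gene, which is its start only on the plus strand. Values per library are given for the called members, for the 3 largest rises and falls of H3K4me3 at each strand in the TSS table, and for the extremes of S5, S2 and H3K4me3. A search for members most like the largest S5 call gave none, since no member was called. The members, roles and lists were chosen with earlier results of these data known. Alternatives were no block, edgeR, library totals, pseudocount 5, no filter, values relative to H3, and each replicate left out.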

Additional observations from a re-analysis of the deposited data

How the results depend on the processing

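Over 46 counts and 354 alternative fits of them, 338 gave a count within 1.5 times that reported and 16 did not, and no call changed sign. Most of these counts were 0 and mostly stayed 0, so this share says little about the counts above 0. For the called members themselves, 420 of 448 alternative values were still called and 28 were not. The H3K4me3 counts in ORF windows stayed at 6 to 8 rises and 7 or 8 falls, and those in TSS windows at 8 rises and 7 to 14 falls. Scaling by library totals gave 7 falls of H3K4me3 in TSS windows, all 7 among the reported 13. It moved the median of all TSS windows by 0.20 and their split from 2387 higher and 1425 lower to 2555 and 824. For H2A.Z the number higher in TSS windows was 3 with library totals, 6 relative to H3 and 1 to 3 with 1 replicate left out, and the number lower in ORF windows was 0 to 1, with 0 without replicate 1. For S5 in TSS windows 2 members were lower relative to H3, where all windows split into 335 higher and 476 lower against 493 and 99, and 0 to 1 were higher and 0 to 1 lower with 1 replicate left out. For S2 in TSS windows 1 member was lower by edgeR, 0 to 1 with 1 replicate left out, and 1 without the V replicate 3 column, a fit chosen after seeing the data. H3K9ac gave 1 higher in TSS windows relative to H3, and H3K9me3 gave 0 to 1 lower in TSS windows with 1 replicate left out. The ratio of the lower 400 bp to the rest gave 0 to 1 lower for H3K9me3 and 0 to 2 lower for S5 with 1 replicate left out. The cause of these differences was not tested. For H2A.Z in ORF windows all windows split into 77 higher and 97 lower as reported, and into 34 and 214 relative to H3. Relative to H3 the rank of vps68 by S5 level in V cells went from 1 to 10.

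Without the replicate block the counts of called vps genes did not move: 7 rises and 7 falls of H3K4me3 in ORF windows, 8 and 13 in TSS windows. At an adjusted p alone, H3K9me3 in ORF windows went from 5 higher and 3 lower to 0 and 0 without the block, and H3 from 0 lower to 6. Deviations of same-numbered libraries went together in every pair (over 0.1) only for H2A.Z and for H3K9ac in the TSS table. In ORF windows replicates 1 and 3 also went together for H3K9ac (0.72 and 0.54) and H3K9me3 (0.63 and 0.57), but replicate 2 did not (0.06 and 0.09). For H3 in ORF windows replicates 1 and 3 went against each other between the states (-0.53 and -0.54), so the pairing differs by antibody. Member windows held 37 to 7167 H3K4me3 reads in the ORF table, so that the lowest V windows carry the most counting error.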
